A study of Mus musculus with 9 samples.

Results

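The genes followed here build the photoreceptor outer segment or set photoreceptor identity, and were measured in the mouse retina after intravitreal injection of an antibody against the complement component C5 (anti-C5 antibody): Rom1, Prph2, Rp1, Abca4, Rpgrip1, Impg1, Impg2, Nrl, Crx and Otx2. They were chosen by name, as the probe set that names only that gene. All 10 genes of the list have exactly 1 such probe set, among 22180 genes with a probe set of their own and 41345 probe sets in all. Retinal RNA was measured on 9 Affymetrix Mouse Gene ST arrays, 3 in each of 3 groups of C57BL/6 mice (C57BL/6J in the methods): control mice, mice given 1 μg of anti-C5 antibody and mice given 10 μg, each in 1 μL. The methods name the first version of this array and the annotation of the deposited probe sets a later one, and every gene name here rests on that annotation. The mice were male, 6 weeks old when purchased, and retinas were collected 7 days after the injection. The antibody is a chimera of a chicken single-chain variable fragment and murine IgG1 against the MG4 domain of C5, and no laser injury is named for these eyes. Each array holds RNA from 4 pooled retinas of 4 mice, so that the spread within a group is a spread between pools. The labels of the control arrays name PBS, while the methods name an IgG1 isotype, and the arrays are called control here; what an antibody of any specificity does in the vitreous and what anti-C5 does cannot be told apart if PBS was injected. The question behind the design was whether the antibody harms the normal retina at the therapeutic dose or at 10 times that dose.

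Photoreceptors carry a stack of membrane discs, the outer segment, in which light is captured, and pass proteins into it through a thin connecting cilium. The outer segment is renewed throughout life, and mutations in its structural genes cause inherited retinal degenerations. Its rim proteins, its ciliary scaffold and the surrounding matrix are made under the control of a small set of transcription factors: Otx2 acts before Crx, and Nrl directs cells to the rod fate. In bulk retinal RNA, fewer photoreceptors and less RNA per photoreceptor cannot be told apart.

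None of the 10 genes passed the adjusted test after either dose, and for all 10 the 95% confidence interval of the change excluded a 1.5-fold difference in either direction in every comparison. The genes that lay farthest from control at 10 μg were Rpgrip1, which encodes the ciliary scaffold that holds the GTPase regulator Rpgr at the connecting cilium, at 0.821-fold of control, and Rom1, which encodes a tetraspanin of the disc rim, at 1.2-fold. The other 8 genes were between 0.953-fold and 1.05-fold of control. The values are log2 expression after Robust Multi-Average (RMA), and the comparisons were made with limma on all 9 arrays, adjusted over 25341 named probe sets at 0.05. At 10 μg against control 0 of the 10 genes were called, where 0.0197% of all named probe sets were. At an unadjusted p below 0.05 there were 2 of the 10, beside 17.4% of all named probe sets: Rom1 on the higher side, where 11.4% of all named probe sets were, and Rpgrip1 on the lower side, where 5.99% were. Of the 10 genes 5 had a value above control, beside 55.7% of all named probe sets. The median change of the 10 genes was 0.005 on the log2 scale, against 0.021 over all named probe sets. By the thresholds of a fold change over 2 with an unadjusted p below 0.05, 0 of the 10 passed at 10 μg, where 1.13% of all named probe sets did.

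**Figure D1:**
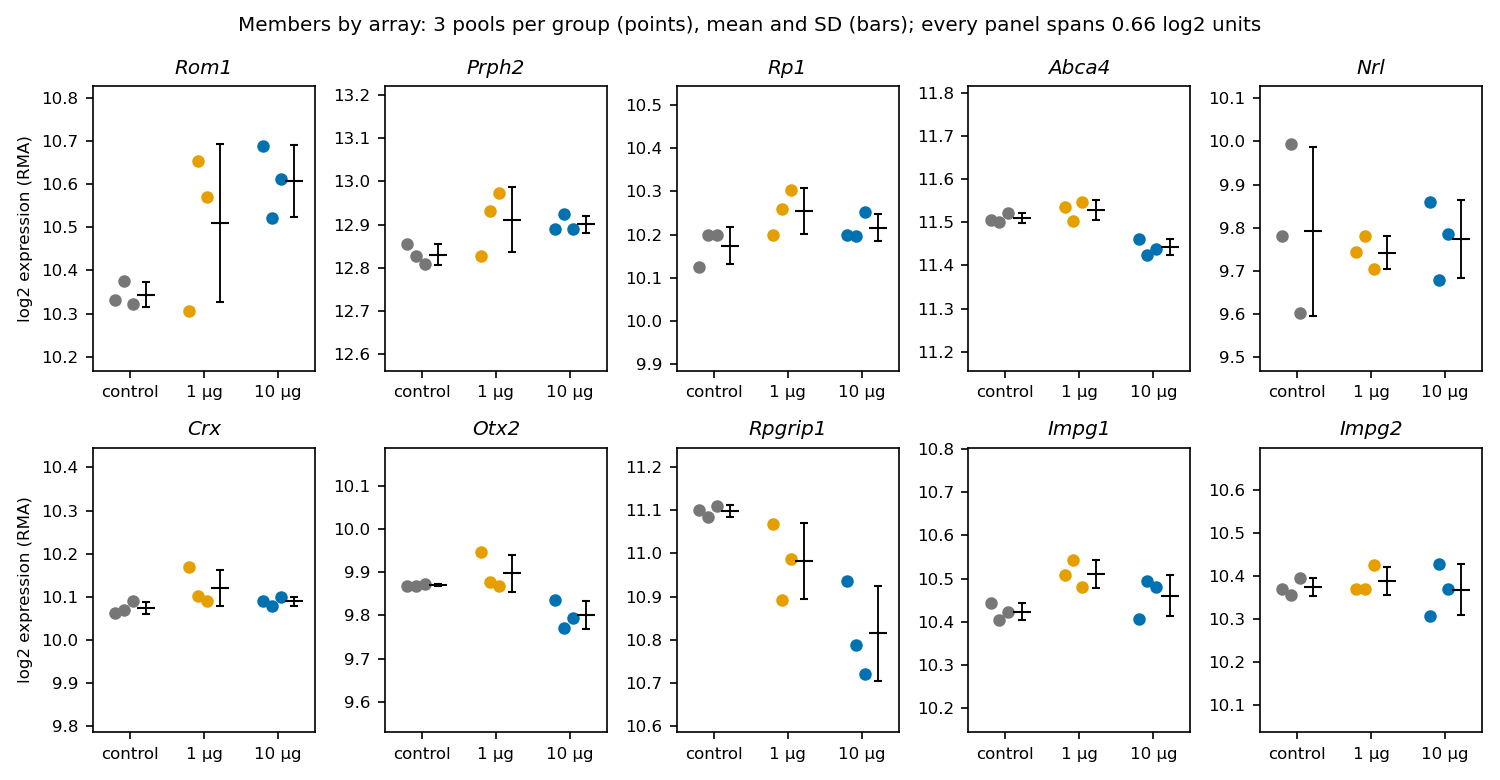
Log2 expression (vertical axis) of each of the 10 genes on every array, by group (horizontal axis: control, 1 μg, 10 μg); points are pools of 4 retinas, and bars are the mean and SD of 3 arrays. Rpgrip1 at 10 μg lay between 10.72 and 10.94, below all control arrays, Rom1 at 10 μg lay above all control arrays, and the control arrays of Nrl spread over 0.39 log2 units.

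The promoter windows of the 3 genes whose pools at 10 μg were all below control, and of Rom1, the highest at 10 μg, are shown to give the sequence context of these genes, since the list also holds transcription factors of photoreceptor genes. The genes were picked by their values and the Otx2 window for its match, so that no relation between sequence and change can be read from them. Crx and Otx2 are homeodomain proteins that prefer the core TAATCC, and Nrl binds Maf-type sites whose half-site is TGCTGA. RefSeq windows of assembly GRCm38.p6, from 250 bases before to 50 bases after the start of transcription, were available for 9 of the 10 genes, with 4 alternative starts for Otx2 and so 12 windows; Rp1 had none. Both cores were searched on both strands, as TAATCC or GGATTA and as TGCTGA or TCAGCA, and no match overlapped another. The windows below are written 5′ to 3′ on the strand of the gene, and capitals mark a match. They lie at chr14:52110653-52110952 (plus strand) for Rpgrip1, chr3:122044210-122044509 (plus strand) for Abca4, chr14:48665060-48665359 (minus strand) for the Otx2 window with a CRX/OTX core, and chr19:8929307-8929606 (minus strand) for Rom1.
Rpgrip1: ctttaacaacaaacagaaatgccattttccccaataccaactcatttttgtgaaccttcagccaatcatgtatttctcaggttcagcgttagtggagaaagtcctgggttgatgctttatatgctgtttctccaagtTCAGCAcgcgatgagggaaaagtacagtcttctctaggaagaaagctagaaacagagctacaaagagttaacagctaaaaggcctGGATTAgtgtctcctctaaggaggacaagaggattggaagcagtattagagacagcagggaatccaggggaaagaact
Abca4: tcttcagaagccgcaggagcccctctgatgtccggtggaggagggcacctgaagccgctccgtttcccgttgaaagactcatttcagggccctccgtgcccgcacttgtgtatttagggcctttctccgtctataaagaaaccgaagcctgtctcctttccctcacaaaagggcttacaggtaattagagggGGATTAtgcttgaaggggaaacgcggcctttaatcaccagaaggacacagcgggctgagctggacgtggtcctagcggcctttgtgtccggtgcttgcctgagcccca
Otx2: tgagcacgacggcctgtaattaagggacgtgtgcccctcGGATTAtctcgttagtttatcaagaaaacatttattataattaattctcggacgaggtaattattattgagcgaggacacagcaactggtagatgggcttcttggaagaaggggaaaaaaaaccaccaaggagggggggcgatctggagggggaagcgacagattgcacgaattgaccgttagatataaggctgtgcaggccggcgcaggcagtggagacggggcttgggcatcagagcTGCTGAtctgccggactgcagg
Rom1: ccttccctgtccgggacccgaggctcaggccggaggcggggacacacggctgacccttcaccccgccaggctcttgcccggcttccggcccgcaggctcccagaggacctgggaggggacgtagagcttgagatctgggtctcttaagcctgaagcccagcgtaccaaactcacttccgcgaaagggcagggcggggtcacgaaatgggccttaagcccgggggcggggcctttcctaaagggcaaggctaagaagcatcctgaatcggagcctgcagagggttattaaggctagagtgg

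The window of Rpgrip1 held a CRX/OTX core that begins at position -28 from the start and an NRL half-site at -113. Abca4 held 1 CRX/OTX core, at -58. Crx itself held 2, at -94 and -21. Otx2 held a CRX/OTX core at -211 and an NRL half-site at 29 in the window shown, and a further half-site at -24 in another of its windows. The windows of Rom1, Prph2, Nrl, Impg1 and Impg2 held neither sequence. In all, 4 of the 9 genes had a CRX/OTX core, by windows 4 of 12, against 7.06% of 32851 windows of the same length. For the NRL half-site it was 2 of the 9 genes, by windows 3 of 12, against 19.5% of all windows. A match describes the letters of the window and is not a measured binding site.

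The disc rim genes Rom1 and Prph2 are paralogous tetraspanins whose products assemble with each other at the edge of the discs. Rom1 (probe set 17362527) had log2 values of 10.69, 10.52 and 10.61 in the 10 μg pools, against 10.33, 10.38 and 10.32 in the control pools. All 3 pools at 10 μg were thus above every control pool, with means of 10.61 ± 0.08 and 10.34 ± 0.03 (SD, n = 3 each). The log2 change was 0.26 (standard error 0.0922, 95% confidence interval 0.05 to 0.48, adjusted p = 0.198 from limma), so that the difference did not pass. At 1 μg the pools of Rom1 had 10.31, 10.65 and 10.57; the first of them lay below all control pools and the other 2 within the range seen at 10 μg. The change at 1 μg was 0.17 (adjusted p = 0.612 from limma), and 0.27 without its replicate 1 (adjusted p = 0.294 from limma).

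Prph2 (probe set 17338203) had 12.89, 12.92 and 12.89 in the 10 μg pools, against 12.86, 12.83 and 12.81 in the control pools. These groups did not overlap either, but the step was small, at 0.07 on the log2 scale (95% confidence interval -0.06 to 0.20, adjusted p = 0.544 from limma). At 1 μg Prph2 was at 12.83, 12.93 and 12.97, a change of 0.08 with overlap between the groups (adjusted p = 0.668 from limma). As with Rom1, replicate 1 at 1 μg was the lowest of its group for Prph2.

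Groups that do not overlap were frequent on these arrays. At 10 μg against control they occurred for 5 of the 10 genes, beside 22.8% of all named probe sets. Of these genes 2 lay above, beside 14.3% of all named probe sets, and 3 below, beside 8.51%. At 1 μg against control it was 2 of the 10 genes, beside 14.9% of all named probe sets: Impg1 lay above, beside 12.5%, and Rpgrip1 below, beside 2.45%. Between 10 μg and 1 μg it was 2 of the 10 genes, Abca4 and Otx2, both below, beside 9.44% of all named probe sets.

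Along the axoneme and the connecting cilium, Rpgrip1 stood apart from Rp1. Rpgrip1 (probe set 17299715) had 10.94, 10.79 and 10.72 in the 10 μg pools, against 11.10, 11.09 and 11.11 in the control pools. The control pools lay within 0.03 of each other, and every pool at 10 μg was below them. The log2 change was -0.28 (standard error 0.0725, 95% confidence interval -0.45 to -0.12, adjusted p = 0.113 from limma), with group means of 10.82 ± 0.11 and 11.10 ± 0.01 (SD, n = 3 each). At 1 μg the pools had 11.07, 10.89 and 10.99, all below the control pools and 2 of the 3 above every pool at 10 μg. The change at 1 μg was -0.12 (adjusted p = 0.637 from limma). Between 10 μg and 1 μg it was -0.17 (95% confidence interval -0.33 to -0.002, adjusted p = 0.478 from limma), and Rpgrip1 was the only 1 of the 10 genes with an unadjusted p below 0.05 in that comparison, beside 10.4% of all named probe sets. Both comparisons with control share the control arrays. With a prior variance that follows the intensity, the change of Rpgrip1 at 10 μg had an adjusted p of 0.0499 from limma and was called, as the only 1 of the 10 genes, in a setting that called 494 of all 25341 named probe sets against 5 without it.

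The changes of Rpgrip1 and Rom1 at 10 μg kept their side of 0 when the arrays were scaled anew. They were at -0.24 and 0.31 with median centring and at -0.31 and 0.24 with cyclic loess. For both genes the pools at 10 μg do not overlap the control pools, so that no other setting and no left-out array could turn the sign. Rpgrip1 was at -0.35 without replicate 1 at 10 μg and at -0.24 without replicate 3 at 10 μg. Rom1 was at 0.22 without replicate 1 at 10 μg.

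**Figure D2:**
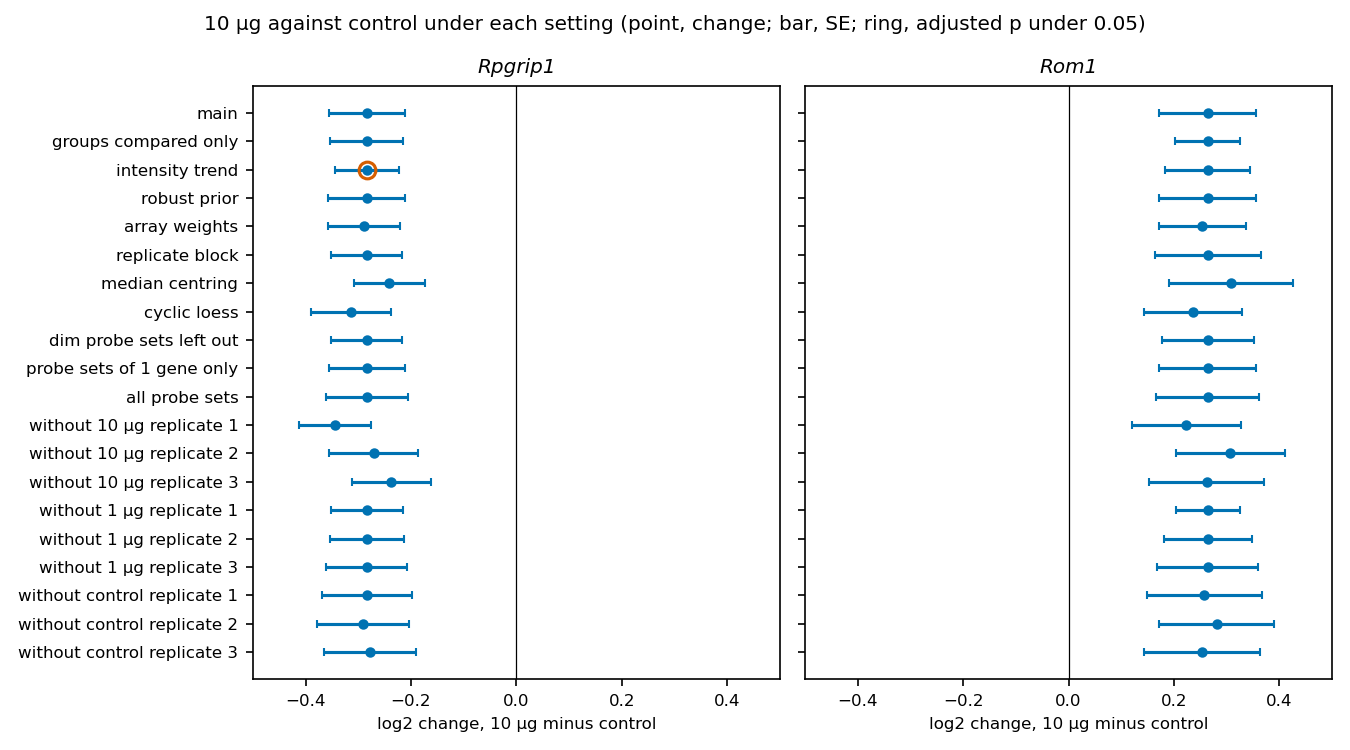
Log2 change at 10 μg minus control (horizontal axis) of Rpgrip1 and Rom1 under each setting of the fit and without each array in turn (vertical axis); points are limma estimates, bars are standard errors and a ring marks an adjusted p under 0.05. The points of Rpgrip1 lie between -0.345 and -0.237 and those of Rom1 between 0.223 and 0.308, and only Rpgrip1 with the intensity trend is ringed.

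Rp1 (probe set 17221061), which encodes the microtubule-associated protein that keeps the discs aligned along the axoneme, had 10.20, 10.20 and 10.25 in the 10 μg pools, against 10.12, 10.20 and 10.20 in the control pools. The groups overlapped, with a change of 0.04 (95% confidence interval -0.08 to 0.17, adjusted p = 0.721 from limma). At 1 μg Rp1 was at 10.20, 10.26 and 10.30, a change of 0.08 (adjusted p = 0.662 from limma).

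Abca4 (probe set 17402222) encodes the disc transporter that clears retinaldehyde adducts from the outer segment. It had 11.46, 11.43 and 11.44 in the 10 μg pools, against 11.51, 11.50 and 11.52 in the control pools. The pools at 10 μg were all lower, at a change of -0.07 (95% confidence interval -0.18 to 0.04, adjusted p = 0.493 from limma). At 1 μg the values were 11.54, 11.50 and 11.55, which overlapped the control pools. The pools at 10 μg were also all below those at 1 μg, at a change of -0.09 (adjusted p = 0.547 from limma).

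Impg1 and Impg2 encode proteoglycans of the interphotoreceptor matrix, which surrounds the outer segments. Impg1 (probe set 17529199) had 10.41, 10.49 and 10.48 in the 10 μg pools, against 10.44, 10.40 and 10.42 in the control pools, a change of 0.04 (adjusted p = 0.737 from limma). At 1 μg it was at 10.51, 10.54 and 10.48, above all control pools, with a change of 0.09 (95% confidence interval -0.03 to 0.21, adjusted p = 0.62 from limma). Impg2 (probe set 17326295) had 10.31, 10.43 and 10.37 in the 10 μg pools, against 10.37, 10.36 and 10.40 in the control pools, so that the groups overlapped around a difference of -0.01 whose sign turned with the scaling of the arrays. At 1 μg Impg2 was at 10.37, 10.37 and 10.43, with a difference of 0.01 whose sign turned as well.

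Among the transcription factors the control pools of Nrl varied most. Nrl (probe set 17306680) had 9.86, 9.68 and 9.79 in the 10 μg pools, against 9.78, 9.99 and 9.60 in the control pools. The control pools enclosed all values at both doses, and the differences were -0.02 at 10 μg (95% confidence interval -0.24 to 0.21, adjusted p = 0.944 from limma), which turned sign with median centring, and -0.05 for the 1 μg pools (adjusted p = 0.894 from limma). Without control replicate 2 both turned to the other side, at 0.08 and 0.05, and without replicate 2 at 10 μg the first was at 0.03.

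Crx (probe set 17486771) was the steadiest of the 10 genes, with a range of 0.11 over all 9 arrays. It had 10.09, 10.08 and 10.10 in the 10 μg pools, against 10.06, 10.07 and 10.09 in the control pools. The difference of 0.01 (95% confidence interval -0.10 to 0.13, adjusted p = 0.902 from limma) turned sign with cyclic loess scaling. At 1 μg Crx was at 10.17, 10.10 and 10.09, a difference of 0.05 (adjusted p = 0.786 from limma) that turned sign in the same way.

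Otx2 (probe set 17305830) is transcribed in photoreceptors, in bipolar cells and in the retinal pigment epithelium. It had 9.83, 9.77 and 9.79 in the 10 μg pools, against 9.87, 9.87 and 9.87 in the control pools. Every pool at 10 μg was lower, at a change of -0.07 (95% confidence interval -0.19 to 0.05, adjusted p = 0.506 from limma). The pools at 10 μg were also all below those at 1 μg, which had 9.95, 9.88 and 9.87, at a change of -0.10 (adjusted p = 0.524 from limma). Of the other cells that transcribe Otx2, the 11 measured bipolar genes had a median change of 0.00 at 10 μg, with 0 called. By their value 6 were above control, beside 55.7% of all named probe sets, and 5 below. At an unadjusted p below 0.05 there were 3 on the lower side, beside 5.99% of all named probe sets, and 0 on the higher side, beside 11.4%. The glutamate receptor Grm6, which marks ON bipolar cells, was at -0.22 (adjusted p = 0.237 from limma). The part of bipolar RNA in the values of Otx2 was not tested.

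**Figure D3:**
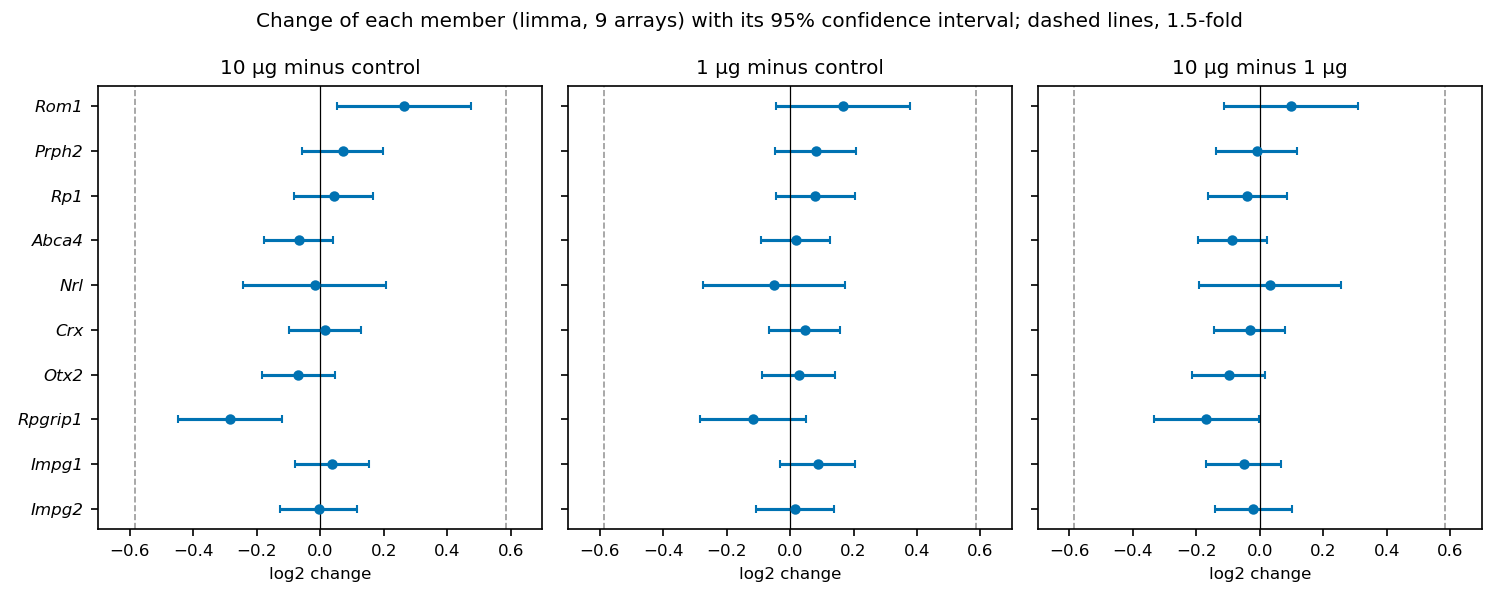
Log2 change (horizontal axis) of each gene (vertical axis) at 10 μg minus control, 1 μg minus control and 10 μg minus 1 μg; points are limma estimates over 9 arrays, bars are 95% confidence intervals and dashed lines mark 1.5-fold. Every interval lies inside the dashed lines; at 10 μg minus control only those of Rom1 (0.05 to 0.48) and Rpgrip1 (-0.45 to -0.12) leave out 0.

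At 1 μg against control 0 of the 10 genes were called by limma, where 0% of all named probe sets were. At an unadjusted p below 0.05 it was also 0 of the 10, beside 9.04% of all named probe sets, and 0 of the 10 were past 2-fold, beside 0.679%. Of the 10 genes 8 had a value above control, beside 62.8% of all named probe sets, with cyclic loess 4 of these 8 below it. Their changes lay between -0.12 for Rpgrip1 and 0.17 for Rom1, with a median of 0.037, against 0.036 over all named probe sets. Between 10 μg and 1 μg 0 of the 10 genes were called, where 0% of all named probe sets were, and 0 were past 2-fold, beside 0.0158%. The median was -0.035, against -0.009 over all named probe sets. Their changes in that comparison ran from -0.17 for Rpgrip1 to 0.10 for Rom1, which was at -0.005 without replicate 1 at 1 μg. Of the 10 genes 8 were below 0, beside 53.1% of all named probe sets. With each array centred on its median, 4 of these 8 (Prph2, Rp1, Crx and Impg2) were above 0 and the median of the 10 genes was 0.009.

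The 10 genes did not vary as one block across the pools. Over the 9 arrays their 45 pairs had Pearson correlations between -0.74 and 0.88, with a median of 0.03. The highest were those of Abca4 with Otx2, at 0.88, of Abca4 with Rpgrip1, at 0.79, of Otx2 with Rpgrip1, at 0.76, and of Rom1 with Prph2, at 0.76. With the group means taken out these 4 pairs had 0.48, 0.73, 0.75 and 0.63. The lowest was that of Rom1 with Rpgrip1, at -0.74, or -0.33 with the group means taken out. Other pairs were the extremes once the group means were taken out: Crx with Otx2 at 0.81 and Prph2 with Crx at -0.98. The median of the 45 pairs was then -0.17. Abca4, Otx2 and Rpgrip1 are also the 3 genes whose pools at 10 μg were all below control. The correlations are a description: the genes of a pair were read on the same 9 arrays and share their normalisation.

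The genes whose pattern over the 9 arrays was most like each of the 10 were looked up among 12563 genes of at least median signal. For Rpgrip1 they were Dusp11, which encodes an RNA phosphatase, at r = 0.98, Luc7l, a splicing factor gene, at 0.98, and Ogt, which encodes the O-GlcNAc transferase, at 0.97. For Rom1 they were Asphd2 at 0.98, Jagn1 at 0.97 and Get3 at 0.97. For Crx the third was Onecut1, at 0.97, a transcription factor of horizontal cells and photoreceptor precursors. It was the only 1 of 30 such genes, 3 for each of the 10, that stood in a photoreceptor list. The 30 correlations lay between 0.897 and 0.984, which with 9 arrays and this many candidates is a description only.

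Other photoreceptor genes were measured in 5 lists that leave out the 10: further outer segment and cilium genes, further transcription factors, genes of the interphotoreceptor space and the visual cycle, rod phototransduction and cone genes. Of 76 measured genes of the 81 listed, 0 were called at 10 μg, and 13 had an unadjusted p below 0.05, 9 higher and 4 lower. These are 17.1% of the 76, beside 17.4% of all named probe sets. At 1 μg 0 were called and 4 had an unadjusted p below 0.05, or 5.26%, beside 9.04%. The medians of the 5 lists at 10 μg lay between -0.03 and 0.04. Rhodopsin and Nr2e3 had no probe set of their own and were not analysed here.

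Of 21 further outer segment and cilium genes, 11 were above control by their value at 10 μg, beside 55.7% of all named probe sets. The other 10 were below, and the median was 0.005. Rpgr, the partner that Rpgrip1 tethers to the cilium, had 8.14, 8.09 and 7.79 in the 10 μg pools, against 8.21, 8.39 and 8.36 in the control pools. All 3 were below control, as for Rpgrip1 and for 8.51% of all named probe sets. The change of Rpgr was -0.31 (standard error 0.102, adjusted p = 0.177 from limma). Fscn2, which encodes a photoreceptor actin-bundling protein, was at 0.25 (adjusted p = 0.174 from limma), the photoreceptor cadherin gene Cdhr1 at 0.21 (adjusted p = 0.245 from limma), and Pde6d, whose product carries lipid-modified proteins to the outer segment, at 0.17 (adjusted p = 0.198 from limma).

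Of 14 further transcription factors 11 were above control by their value in the 10 μg pools, beside 55.7% of all named probe sets, and the median was 0.037. Neurod1, a basic helix-loop-helix factor of photoreceptors and amacrine cells, had 7.26, 7.03 and 7.42 in the 10 μg pools, against 6.98, 6.68 and 6.84 in the control pools. Its change of 0.40 (standard error 0.108, adjusted p = 0.125 from limma) was the largest of the list, with the groups apart. Rxrg, a nuclear receptor gene of cones, was at 0.24 (adjusted p = 0.196 from limma), Prdm1, which encodes a repressor in photoreceptor precursors, at -0.09 and Rax, a retinal homeobox gene, at 0.09.

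In the list of 9 genes named for the interphotoreceptor space and visual cycle, Mpp4 was at -0.25 at 10 μg (adjusted p = 0.137 from limma). Mpp4 encodes a scaffold of the photoreceptor synapse, so that the name of the list does not hold for every gene in it. On the other side Cnnm4 was at 0.20, the photoreceptor retinol dehydrogenase Rdh8 at 0.16 and Dhrs3 at 0.13 (adjusted p = 0.246 to 0.265 from limma). The median of the list was 0.03. Among 20 rod phototransduction genes, with a median of -0.03, Rgs9, which encodes the protein that speeds the shut-off of transducin, was at -0.15 (adjusted p = 0.259 from limma), Guca1a at 0.16, Pde6b at -0.11 and Grk1 at -0.09. Among 12 cone genes, with a median of 0.00, Arr3, the cone arrestin gene, had 9.75, 9.65 and 9.87 in the 10 μg pools, against 10.09, 10.25 and 10.15 in the control pools, at a change of -0.41 (adjusted p = 0.0955 from limma). The short-wave cone opsin gene Opn1sw was at 0.12, Pde6c at -0.11 and Cngb3 at -0.13. No gene of these 2 lists was called.

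**Figure D4:**
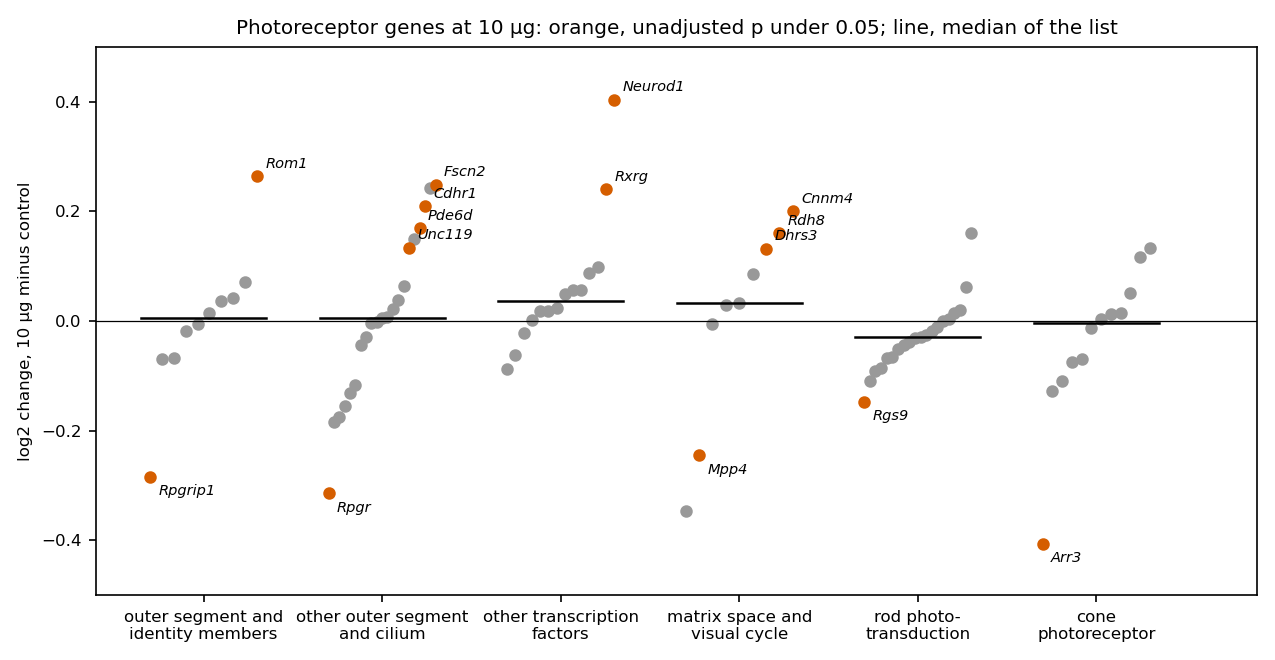
Log2 change at 10 μg minus control (vertical axis) of the 10 genes and of 5 lists of other photoreceptor genes (horizontal axis); each point is a gene, orange points have an unadjusted p below 0.05 and lines are list medians. Rom1 and Rpgrip1 stand at either end of the 10, and all list medians lie between -0.03 and 0.04.

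The pools differed in genes of neighbouring tissue. The mean level of 16 genes of the retinal pigment epithelium ranged from 7.23 to 7.86 at 10 μg, against 7.18 to 7.68 in the control pools, and from 7.27 to 7.37 at 1 μg. The value at 10 μg was above control for 13 of the 16, beside 55.7% of all named probe sets, at a median of 0.17, and 0 were called. Rpe65, its visual cycle isomerase, was at 8.01, 9.01 and 8.83 in the 10 μg pools, against 7.94, 8.19 and 7.85 in the control pools. Replicates 2 and 3 at 10 μg, which were highest for these genes, were also the lowest for Rpgrip1. Control replicate 2, with a mean level of 7.68, Rpe65 at 8.19 and the pigment genes Dct at 8.73 and Tyrp1 at 7.73, had a Rpgrip1 value within 0.03 of the other control pools. At 1 μg replicate 2 had the highest Rpe65 of its group, 8.52, and the lowest Rpgrip1, 10.89. The list was split on that array: Rgr and Lrat were also the highest of their group, at 10.36 and 6.62. Tyrp1, Mlana and Tyr were the lowest of their group there, at 6.36, 5.92 and 4.10. Without replicate 2 at 10 μg the change of Rpgrip1 was -0.27, and without replicate 3 at 10 μg it was -0.24. The part of pigment epithelium RNA in the values of Rpgrip1 and Otx2 was not tested.

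Lens and muscle genes differed widely between pools of 1 group and were mostly lower than control by their values, with 0 called by limma. At 10 μg 15 of 18 lens genes were below control, with a median of -0.63, and 14 of 14 muscle genes, with a median of -0.39. At 1 μg it was again 15 of 18 and 14 of 14, with medians of -0.43 and -0.72. Over all named probe sets 55.7% were above control at 10 μg and 62.8% at 1 μg. At an unadjusted p below 0.05 there were 3 lens and 0 muscle genes at 10 μg, beside 17.4% of all named probe sets. At 1 μg there were 2 lens genes and 1 muscle gene, beside 9.04%. The mean level of 18 lens genes ranged from 6.12 to 7.07 at 10 μg, against 5.85 to 7.95 in the control pools, and from 5.76 to 7.01 at 1 μg. Replicate 1 at 1 μg, the lowest of its group for Rom1 and Prph2, was the lowest of all arrays for lens genes. The lens crystallin gene Cryaa was at 9.32, 11.79 and 9.13 in the 10 μg pools, against 12.93, 13.20 and 8.56 in the control pools. For 14 muscle genes the mean level ranged from 5.71 to 6.63 at 10 μg, against 5.69 to 8.21 in the control pools, where control replicate 1 was the highest, and from 5.68 to 6.37 at 1 μg. Control replicates 2 and 3 were at 5.69 and 6.38, against 6.63, 5.71 and 6.45 in the 10 μg pools. The lower muscle values at 10 μg thus rest on control replicate 1. At 1 μg the pools were at 6.37, 5.68 and 5.85, also close to control replicates 2 and 3. The lower muscle values at 1 μg thus rest largely on control replicate 1 too. The skeletal muscle actin gene Acta1 was at 7.56, 6.47 and 7.22 in the 10 μg pools, against 9.32, 6.25 and 7.07 in the control pools.

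The mean level of the 10 photoreceptor genes stayed between 10.63 and 10.70 on all 9 arrays. The retina of the label was borne out by 20 rod phototransduction genes, which averaged 11.39 to 11.46 on all 9 arrays, where the array medians were 5.88 to 6.04. Within a list of 13 injury-response genes, 10 were above control at 10 μg by their value, beside 55.7% of all named probe sets. Of these 6 had an unadjusted p below 0.05, beside 11.4% of all named probe sets on the higher side and 17.4% on either side. Of the others 0 had such a p, and 0 of the list were called by limma. Of other cells of the retina, 13 of 13 ganglion cell genes were above control at 10 μg by their value (median 0.26, 7 at an unadjusted p below 0.05), as were 12 of 15 microglia genes (median 0.17, 6), 11 of 12 Müller glia genes (median 0.12, 4), 10 of 12 amacrine and horizontal cell genes (median 0.13, 3) and 9 of 11 endothelial genes (median 0.06, 2), with 0 called by limma. Beside these, 55.7% of all named probe sets were above control at 10 μg. On the higher side, where all these low p lay, 11.4% had an unadjusted p below 0.05. At 1 μg 12 of 13 ganglion cell, 13 of 15 microglia and 10 of 12 Müller glia genes were above control (6, 3 and 3 at an unadjusted p below 0.05). So were 11 of 12 amacrine and horizontal cell and 9 of 11 endothelial genes (3 and 0), again with 0 called. Beside these, 62.8% of all named probe sets were above control at 1 μg, and 9.04% had such a p on either side. Of the 11 bipolar genes 6 were above control at 10 μg. The part of these cells in the values of the 10 genes was not tested. Of the injury-response genes, Edn2, which photoreceptors make when stressed, was at -0.22 at 10 μg (adjusted p = 0.314 from limma) and Gfap at 0.74 (adjusted p = 0.18 from limma). Gfap averaged 7.15 at 1 μg, 7.11 at 10 μg and 6.37 in control. At 1 μg 10 of the 13 injury-response genes were above control, beside 62.8% of all named probe sets. Of them 4 had an unadjusted p below 0.05, beside 9.04% of all named probe sets, and 0 were called.

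**Figure D5:**
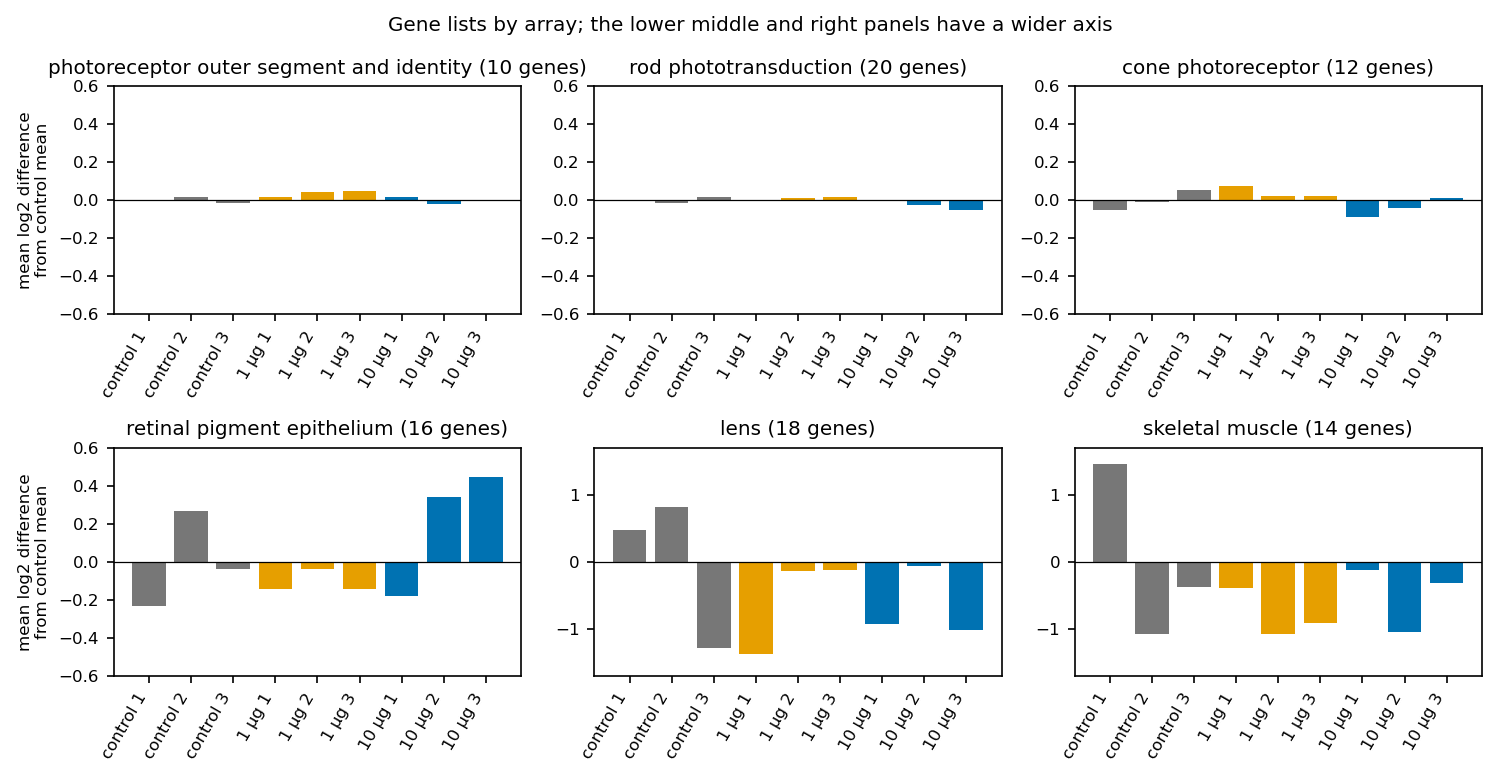
Mean log2 difference from the control mean (vertical axis) of 6 gene lists on each array (horizontal axis), with control, 1 μg and 10 μg arrays in order; bars are means over the genes of a list and no error is drawn. The mean over the 10 photoreceptor genes stayed within 0.05 of the control mean on every array, while the means of pigment epithelium, lens and muscle genes differed between pools of the same group. A list mean does not show single genes, and Rpgrip1 and Rom1 changed in opposite directions at 10 μg.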

How the data were processed

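The deposited values are log2 signals that the authors computed with RMA in Expression Console 1.1, which subtracts background, quantile-normalizes the arrays and summarises the probes of a set by median polish; the images were not analysed here, and no detection call was available. The array values have no read depth, and the number of arrays limits the precision, with a median half-width of the 95% confidence interval of 0.212 at 10 μg against control. Median polish can give several arrays exactly the same value: this held for 6 of the 10 genes and for 53.5% of the named probe sets. Probe sets were named through the platform annotation (23521 with 1 gene, 1820 with several, 16004 without a name and not tested). Array medians lay between 5.88 and 6.04, array pairs correlated at 0.971 to 0.991, and 0 columns were left unmapped.

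All 25341 named probe sets were fitted with limma 3.58.1 in R 4.3.3 on the 9 arrays, with group means, empirical Bayes moderation and Benjamini-Hochberg adjustment at 0.05 within each comparison. The paper names no test for the arrays. The fit was tested on simulated data with planted changes far larger than those of the 10 genes, so that the test does not speak to changes of their size. Named genes are the 10, the 4 of each photoreceptor list with the smallest p at 10 μg, the 3 genes most like each of the 10, and single markers of other cells; genes without a probe set of their own are left out. The genes and lists were chosen with earlier results of these data known. The alternatives changed the prior (intensity trend or robust), the arrays (weights; a replicate block; a fit of the compared groups alone; each array left out in turn), the scaling (median centring or cyclic loess) and the probe sets tested (without dim ones, of 1 gene only, or all). Promoter windows are those of RefSeq, GRCm38.p6; a build for the array design is not given in the sources used here. Figures were drawn with matplotlib 3.10.9 in Python 3.11.15.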

Additional observations from a re-analysis of the deposited data

How the results depend on the processing

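Of the 10 genes, 0 were called at 1 μg or between the doses under any of the 10 other settings or without any single array. At 10 μg Rpgrip1 alone was called, with the intensity trend alone (1 of the 10 genes, adjusted p = 0.0499 from limma). Over all settings its change ran from -0.345 to -0.237 and its adjusted p from 0.0499 to 0.263, and those of Rom1 from 0.223 to 0.308 and from 0.0862 to 0.363.

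The number of named probe sets called at 10 μg, 5, was far less stable: 494 with the trend, 400 without dim probe sets, 288 with median centring, 120 with cyclic loess, 2 with all probe sets, 1 with the robust prior, array weights or probe sets of 1 gene only, 0 with the replicate block, and 0 to 328 without single arrays, the highest without replicate 3 at 10 μg. Without single arrays it was 0 to 2 at 1 μg. Of the 10 genes, 2 at 10 μg and 1 between the doses had an unadjusted p below 0.05. The cause was not tested.

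The median of the 10 genes was 0.048 at 10 μg and 0.009 between the doses with median centring. With cyclic loess it was -0.023 (10 μg), -0.022 (1 μg) and -0.009 (between the doses), and without single arrays -0.052 to -0.027 between the doses.

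The signs of small differences turned with scaling. Median centring gave Nrl 0.025 and Impg2 0.038 at 10 μg and, between the doses, Prph2 0.034, Rp1 0.005, Crx 0.013 and Impg2 0.024. Cyclic loess gave Crx -0.013 at 10 μg; Abca4 -0.029, Crx -0.015, Otx2 -0.034 and Impg2 -0.043 at 1 μg; and Crx 0.002 and Impg2 0.01 between the doses. With array weights Impg2 was at 0 at 10 μg. Without single arrays Impg2 ran from -0.035 to 0.025 at 10 μg, from -0.004 to 0.026 at 1 μg and from -0.049 to 0.011 between the doses; Nrl from -0.113 to 0.083, from -0.145 to 0.051 and from -0.011 to 0.08; Rom1 between the doses from -0.005 to 0.169, turning without replicate 1 at 1 μg; and Prph2 between the doses from -0.052 to 0.021.

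Replicate numbers are shared by the groups, but the deviations of same-numbered arrays correlated at -0.201 to 0.126, and 4 of the 9 arrays correlated best with their own number, so the numbers were not taken as pairs; the replicate block changed no call of the 10 genes. A mean of several probe sets of a gene was not run, since each gene has 1.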
